A study of Mus musculus with 6 samples.

Results

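Genes for the inhibitors of cyclin-dependent kinases (CDKs) and for the pocket proteins were examined in differentiating myoblasts of a myotonic dystrophy type 1 (DM1) model. The 10 genes were chosen by name among the 55421 genes of the deposited table, as the Cip/Kip inhibitors Cdkn1a, Cdkn1b and Cdkn1c, the INK4 inhibitors Cdkn2a, Cdkn2b, Cdkn2c and Cdkn2d, and the pocket proteins Rb1, Rbl1 and Rbl2. All 10 were found in each of the 6 libraries' tables. The cells were C2C12, a mouse myoblast line whose cells leave the cycle and fuse into myotubes in low serum, and every line carried a GFP transgene with expanded CUG repeats in its 3′ untranslated region. The control (3 libraries of line CUG200-ctrl) carried the empty vector, and the other group (3 libraries of line CUG200-m) carried a plasmid that overexpresses miR-322 and miR-503. Both were stable lines made by drug selection, and RNA was taken on day 4 in differentiation medium. Each group is 1 line, so an effect of the microRNAs cannot be told apart from another difference between the lines, and whether a line was 1 clone is not given in the sources used here. The methods state that assays had biological as well as technical replicates unless noted, while the labels do not tie a library to a culture. The p-values measure the spread between libraries of 1 line per group.

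Progress from G1 into S phase depends on CDKs, which are active only when bound to cyclins. INK4 proteins bind CDK4 and CDK6 and keep D-type cyclins from activating them, while Cip/Kip proteins bind a wider range of cyclin-CDK complexes. Active CDKs phosphorylate the pocket proteins, which in their unphosphorylated state hold E2F transcription factors in check. A myoblast must leave the cell cycle to become a myotube, and induction of Cdkn1a and activity of Rb1 are known features of that exit.

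The 2 overexpressed microRNAs share bases 2 to 7 of the seed (the 5′ bases that pair with a target) with the miR-16 family, which is known for targets among the cyclins and CDKs. Their mature sequences are shown because they define the match searched for in the 10 genes. They are given 5′ to 3′ as in RefSeq for GRCm38.p6, where both lie on the minus strand of the X chromosome, with bases 2 to 8 in capitals.
mmu-miR-322-5p: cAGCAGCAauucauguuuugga
mmu-miR-503-5p: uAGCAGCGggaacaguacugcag
The first lies at chrX:53054306-53054327 and the second at chrX:53054027-53054049. The libraries could not follow the microRNAs themselves, since the control libraries held 1, 7 and 2 counts of Mir322 and the CUG200-m libraries 17, 0 and 3, and Mir503 had 1, 1 and 2 against 6, 4 and 5.

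The letters complementary to the seeds, TGCTGCT for miR-322-5p and CGCTGCT for miR-503-5p, were searched on the transcript strand of the longest GENCODE M21 3′ untranslated region of each gene. Of the 10 genes, 3 held TGCTGCT, each once, and none held CGCTGCT. Among 13487 tested genes with such a region, 27.0% held TGCTGCT and 5.72% held CGCTGCT. The 3 matches are shown with the matching letters in capitals, since Rbl2 fell, Cdkn1a did not pass the test and Cdkn2b had no reads.
Cdkn1a: atctggtgatcTGCTGCTcttttccccca
Cdkn2b: tctccacaagcTGCTGCTgcaggggaact
Rbl2: aggtaacttcaTGCTGCTctacagcaccc
In GRCm38 they lie at chr17:29100078-29100106 on the plus strand, chr4:89306729-89306757 on the minus strand and chr8:91123679-91123707 on the plus strand. A match of letters is a description and not a shown target site. The other genes that fell, Cdkn1c, Cdkn2c, Cdkn2d and Rbl1, held neither match. The shorter GCTGCT, complementary to bases 2 to 7 of both microRNAs and part of both longer matches, was found in 49.3% of the same tested genes. Rbl1 held 1 such match, and Cdkn2b held 2, counting the one within its longer match.

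Expression was compared between the CUG200-m and control libraries to ask how these cell cycle brakes stood in the 2 lines. Counts were scaled to counts-per-million (CPM) with TMM normalization and the groups were compared by the quasi-likelihood test of edgeR. The Benjamini-Hochberg adjustment covered all 18140 genes kept by its expression filter, and calls were made at adjusted p-values under 0.05. Of the 10 genes, 8 passed the filter and Cdkn2a and Cdkn2b, at 0 counts in all 6 libraries, did not. Cdkn1c, Cdkn2c, Cdkn2d, Rbl1 and Rbl2 fell, Cdkn1a, Cdkn1b and Rb1 did not pass the test, and none rose. In the background of all tested genes, 15.5% were called lower and 13.2% higher. Changes are given as log2 fold changes (log2FC) of CUG200-m over control. With a further limit of more than 2-fold, the cut-off of the study, Cdkn1c alone remained, beside 5.29% of all tested genes lower, 4.59% higher and 9.87% in either direction. No member rose at an unadjusted p under 0.05 either, and DESeq2 called the same counts, 0 higher and 5 lower. The CPM values of the groups did not overlap for 6 of the 8 (the 5 that fell and Cdkn1a), against 45.1% of all tested genes.

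**Figure D1:**
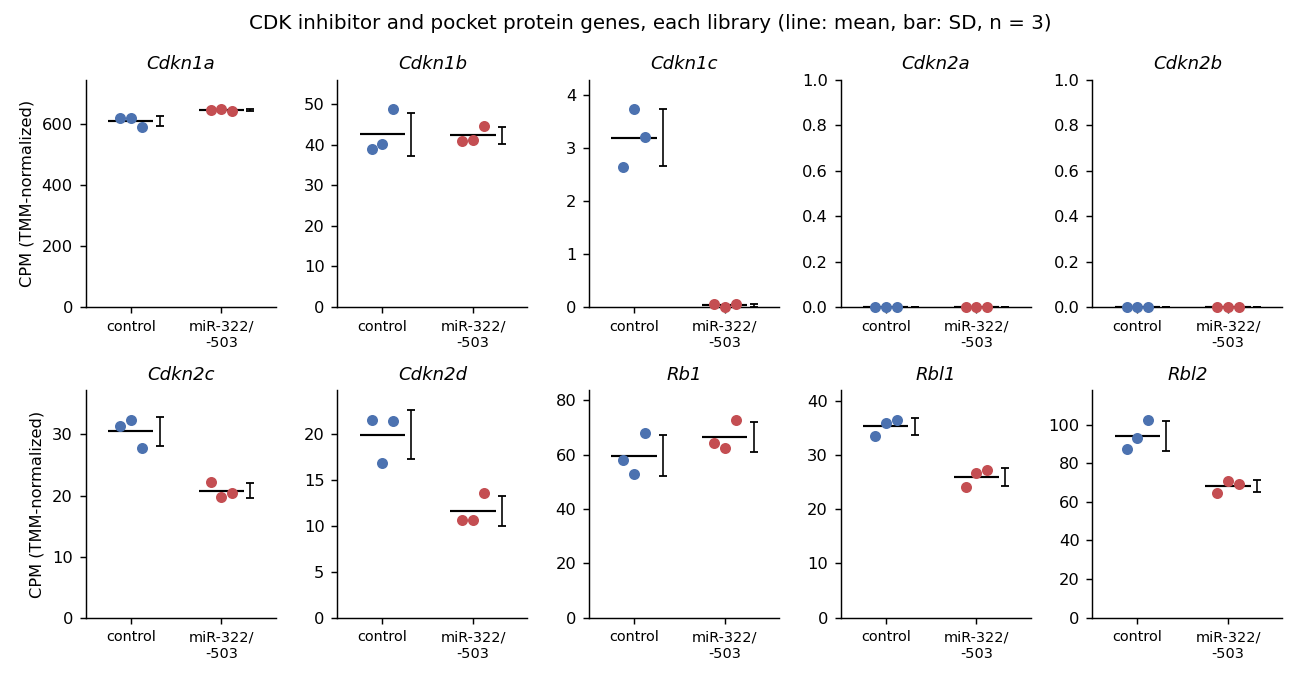
TMM-normalized CPM of the 10 genes, with 1 panel per gene and 1 point per library for the control (blue) and CUG200-m (red, given on the axes by its microRNAs) groups; lines are means and bars the SD over 3 libraries. Cdkn1c dropped from a mean of 3.20 to 0.0352 CPM, Cdkn2c, Cdkn2d, Rbl1 and Rbl2 were lower in every CUG200-m library, and Cdkn2a and Cdkn2b lie at 0 throughout.

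Total estimated counts per library were between 73532084 and 92157388, and about 4 counts stood for 1 read pair. Muscle markers were well expressed in both groups, with all 10 of a list that includes Myod1, Myog, Des and Myh3 above 1 CPM, summing to between 4541 and 4905 CPM in the control and between 5774 and 6001 CPM in CUG200-m. Of the 10, 6 were higher and 1 was lower, beside 13.2% higher and 15.5% lower among all tested genes. The lower marker was Myog (203 to 122 CPM, log2FC -0.74). Myh3, Mymk and Acta1, with log2FC values of -0.05, -0.41 and 0.09, did not pass the test. Des (1149 to 1800 CPM) and Ttn (1082 to 1411 CPM) rose most in CPM. Markers of cycling cells moved with the comparison, since all 8 of that list (Mki67, Top2a, Bub1, Aurkb, Plk1, Cenpf, Birc5 and Tpx2) fell, beside 15.5% of all tested genes. Their sum was 946 to 1000 CPM in the control and 601 to 635 CPM in CUG200-m. Their part in the results was not tested. Fibroblast markers summed to between 3034 and 3169 CPM in the control and between 3265 and 3509 CPM in CUG200-m, most of it from Col1a1, which rose, with the other 4 tested markers lower and Thy1 at or near 0. The endothelial list, nearly all Tek, summed to between 1.03 and 1.30 CPM in the control and between 3.75 and 5.07 CPM in CUG200-m. Adipocyte, osteoblast and macrophage lists summed to at most 0.0665, 3.78 and 21.8 CPM in any library, with Adipoq, Cidec, Fabp4, Ibsp, Tie1 and Adgre1 at 0 in all 6. Within these lists Cd14 (15.8 and 12.5 CPM in the control and CUG200-m), Alpl (1.596 and 0.236 CPM) and Lyz2 (1.27 and 0.0222 CPM) were called lower. Alpl, with 18, 35 and 4 counts in CUG200-m, and Lyz2 passed the expression filter only through the control. Cd68, Dmp1 and Bglap had log2FC values of 0.48, 0.44 and 1.67 and Csf1r had -0.23, none past the threshold.

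Cdkn1a (p21), which is induced by MyoD and by p53, was by far the most abundant of the 10 genes. It had 621, 621 and 591 CPM in the control libraries and 646, 649 and 643 CPM in the CUG200-m libraries. In CPM every CUG200-m library was above every control library, but the gap was small, and in the deposited TPM the groups overlapped. The means were 611 ± 17.3 and 646 ± 3.05 CPM (SD, n = 3), and the log2FC of 0.08 had a 95% interval from -0.04 to 0.20 (adjusted p = 0.277). The falls of the INK4 genes below were larger than either end of that interval.

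Cdkn1b (p27), which holds cells in quiescence and is controlled largely through protein turnover, had 38.9, 40.03 and 48.7 CPM in the control and 40.9, 41.2 and 44.7 CPM in CUG200-m. The groups overlapped. Its log2FC was -0.01 with an interval from -0.24 to 0.22 (adjusted p = 0.961), and the sign turned with the scaling of the libraries.

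Cdkn1c (p57), an imprinted gene expressed from the maternal copy and known to act beside Cdkn1a in muscle, was almost lost. It had 205, 308 and 271 counts in the control libraries and 5, 0 and 4 in the CUG200-m libraries. In CPM these were 2.65, 3.73 and 3.21 against 0.0525, 0 and 0.0532, so the groups lay far apart. Cdkn1c passed the expression filter only through the control libraries. On read pairs summed over the libraries of a group, 196 stood against 2, a ratio of 98.4 for control over CUG200-m with an exact 95% counting interval from 26.9 to 819, which covers counting error only. The log2FC fitted by edgeR was -6.40 (standard error 0.55, adjusted p = 0.000144), a value that depends on the prior count at such low levels. With limma it was -2.21 on log2(TPM + 1) and -4.90 on log2(TPM + 0.1), both past the threshold. In bulk RNA, fewer cells with a transcript and less of it per cell cannot be told apart.

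The neighbourhood of Cdkn1c on chromosome 7 (143458339 to 143461050, minus strand, GRCm38) did not fall with it as a whole. Of 18 tested genes that reach within 500 kb of its start, 2 were called lower and 8 higher, and the median without Cdkn1c was a log2FC of 0.38, beside 15.5% lower, 13.2% higher and a median of -0.01 over all tested genes. The other gene that fell was Slc22a18, an imprinted gene for an organic cation transporter-like protein whose start lies 12.7 kb away. It had 1.93, 2.03 and 1.42 CPM in the control and 0.535, 0.253 and 0.106 CPM in CUG200-m, with no overlap and a log2FC of -2.56 (standard error 0.52, adjusted p = 0.00892). Like Cdkn1c, it passed the expression filter only through the control libraries, since the CUG200-m libraries had 51, 19 and 8 counts. Cdkn1c and Slc22a18 are both known to be expressed from the maternal copy, under the imprinting centre that also holds the promoter of the noncoding RNA Kcnq1ot1. Alleles were not told apart here, and the part of imprinting in these values was not tested.

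Kcnq1ot1, made from the paternal copy, had 4.08, 4.64 and 4.00 CPM in the control and 6.15, 5.05 and 6.26 CPM in CUG200-m, a log2FC of 0.46 (adjusted p = 0.0445). That call was marginal, since leaving out 1 library gave an adjusted p of 0.121 without control replicate 1, 0.0610 without control replicate 2, 0.115 without control replicate 3, 0.118 without CUG200-m replicate 1 and 0.133 without CUG200-m replicate 3. Nap1l4, a histone chaperone gene further along, rose from 86.3 ± 5.19 to 113 ± 3.77 CPM (SD, n = 3), a log2FC of 0.38 (adjusted p = 0.00340). Cd81, Tssc4 and Osbpl5 had log2FC values of 0.17, 0.17 and -0.10 and did not pass the test. Kcnq1, Phlda2 and Ascl2 were too low to be tested, with at most 25, 1 and 7 counts in any library.

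**Figure D2:**
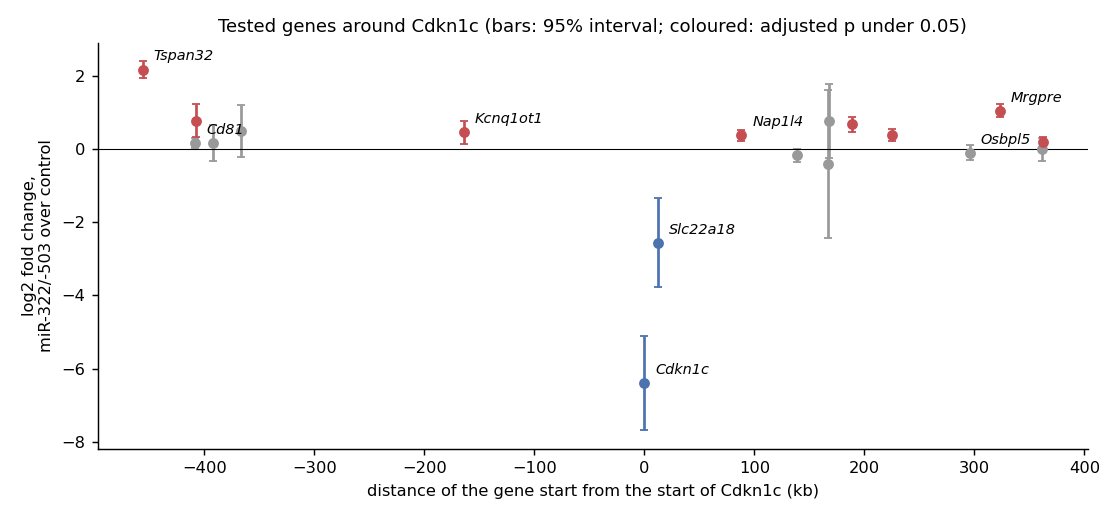
Log2FC (CUG200-m over control) of the 18 tested genes around Cdkn1c against the distance of their start from that of Cdkn1c in kb; bars are 95% intervals, and colour marks an adjusted p under 0.05 (blue lower, red higher). Cdkn1c (-6.40) and Slc22a18 (-2.56) lie below 0, while Nap1l4 (0.38) on the far side of Slc22a18 lies above it.

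Among the INK4 genes, 2 gave no reads and 2 fell. Cdkn2a encodes both p16INK4a and the p53 activator ARF, and Cdkn2b (p15) lies beside it on chromosome 4. At 0 counts, each library allowed at most a floor of 3 read pairs (12 counts), or between 0.126 and 0.160 CPM. The run of annotated genes without a count in any library that holds both spans 8 genes, between Gm12606 and Zfp352. These end genes were themselves low, with 60 and 7 counts summed over all 6 libraries. Mtap, which ends 93.4 kb from Cdkn2a and was named after its values were seen, had between 5156 and 6650 counts (66.0 ± 2.98 CPM in the control and 70.5 ± 1.14 CPM in CUG200-m, SD, n = 3). Zero counts in every library were also found for 27016 of the 55421 genes of the table, and DNA was not analysed here.

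Cdkn2c (p18), an INK4 gene that rises as myoblasts differentiate, had 31.4, 32.4 and 27.8 CPM in the control and 22.2, 19.8 and 20.3 CPM in CUG200-m. All CUG200-m libraries were below all control libraries. Its log2FC was -0.55 (standard error 0.09, adjusted p = 0.00335), or 0.681 of the control level. Cdkn2d (p19), the INK4 gene that varies with the cell cycle, had 21.5, 16.9 and 21.4 CPM in the control and 10.7, 10.7 and 13.5 CPM in CUG200-m. The groups were again apart, with a log2FC of -0.78 (standard error 0.14, adjusted p = 0.00551), or 0.582 of the control level.

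Of the pocket proteins, Rb1 did not pass the test and its 2 relatives fell. Rb1, which restrains the activator E2Fs and is needed for lasting exit from the cycle in muscle, had 57.9, 53.01 and 67.9 CPM in the control and 64.3, 62.3 and 72.7 CPM in CUG200-m. The ranges overlapped, and the log2FC of 0.16 had an interval from -0.09 to 0.40 (adjusted p = 0.317). The log2FC of Rb1 was 0.08 without control replicate 2, 0.26 without control replicate 3 and 0.09 without CUG200-m replicate 3. Rbl1 (p107), itself an E2F target that is high in cycling cells, had 33.5, 35.9 and 36.4 CPM in the control and 24.04, 26.7 and 27.1 CPM in CUG200-m. It was lower in every library, with a log2FC of -0.44 (standard error 0.08, adjusted p = 0.00522). Rbl2 (p130), which forms the repressor complex with E2F4 in quiescent cells, had 87.1, 93.0 and 102 CPM in the control and 64.5, 70.6 and 69.3 CPM in CUG200-m. It too was lower in every library, with a log2FC of -0.47 (standard error 0.07, adjusted p = 0.00298). The span of Rb1 overlaps those of Rcbtb2 and Lpar6, and the span of Rbl2 those of Aktip and Gm45464, all on the opposite strand. Exons were not compared, and without strand information reads from any exonic stretch they share cannot be told apart. Aktip, near Rbl2 in level, had 5268, 5884 and 5401 counts in the control libraries and 5222, 4232 and 4241 in CUG200-m (log2FC -0.28, adjusted p = 0.0113), and Rcbtb2 had between 2839 and 4065 in any library (log2FC 0.03, adjusted p = 0.873). Gm45464 had 250, 311 and 303 counts in the control libraries and 158, 146 and 210 in CUG200-m, and Lpar6 had between 656 and 875 in any library.

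Leaving out any 1 library kept each of the 8 tested genes on its side of the threshold. Over these 6 fits the adjusted p reached at most 0.00131 for Cdkn1c, 0.0161 for Cdkn2c, 0.0260 for Cdkn2d, 0.0202 for Rbl1 and 0.0165 for Rbl2, and was at least 0.306 for Cdkn1a, 0.395 for Cdkn1b and 0.0837 for Rb1.

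Genes near some members were lower in the CUG200-m line as well. For each member the 20 nearest tested genes on either side were taken. Around Cdkn2d on chromosome 9 these 40 genes had a median log2FC of -0.34, with 38 of them below 0, and around Rbl2 on chromosome 8 it was -0.74, again with 38 below 0. Around Cdkn2c on chromosome 4 the median was -0.29, with 29 below 0. Taken over the whole chromosome, chromosomes 9 and 4 had medians of -0.27 and -0.19, with 76.3% and 68.6% of the other tested genes below 0, while chromosome 8 had a median of -0.03. Cdkn2d and Cdkn2c thus lay 0.44 and 0.26 log2 units under their neighbours' median (differences of -0.44 and -0.26), while Rbl2 fell by less than its neighbours (a difference of 0.27). Of the 40 neighbours, 7 were lower than Cdkn2d, 10 lower than Cdkn2c and 28 lower than Rbl2. Cdkn2c lay within its neighbours' quartiles, just above the lower quartile of -0.561. Around Rbl1 on chromosome 2 the neighbours had a median of -0.05, and Rbl1 lay -0.39 from it. The neighbours of Cdkn1a, Cdkn1b and Rb1 had medians of -0.03, 0.02 and -0.00. The part that position plays in these falls was not tested, and DNA copy number was not analysed here.

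**Figure D3:**
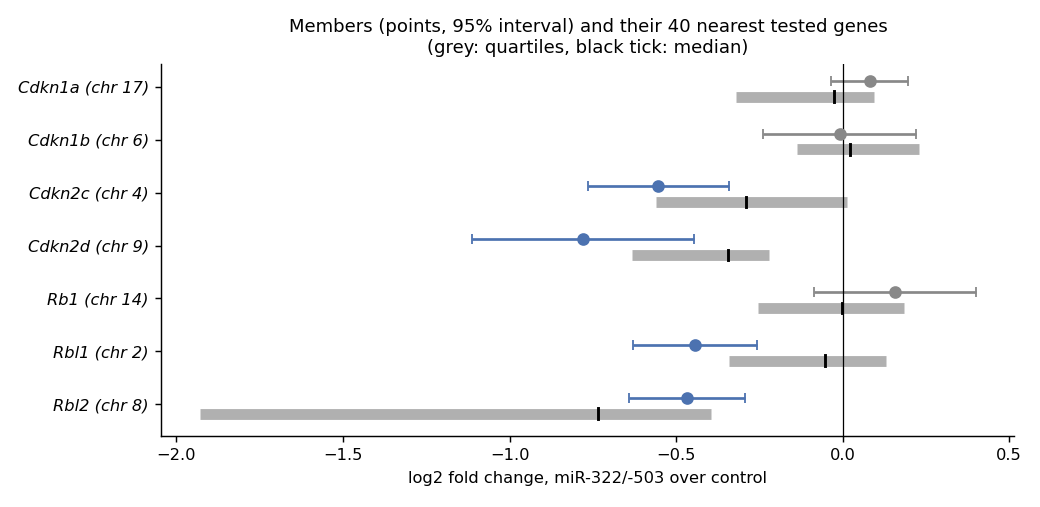
Log2FC (CUG200-m over control) of 7 tested members with its 95% interval (blue where the adjusted p is under 0.05), and below each the quartiles (grey) and median (black tick) of its 40 nearest tested genes. Cdkn1c (-6.40) is not drawn. Cdkn2c, Cdkn2d and Rbl1 lie left of their neighbours' median and Rbl2 lies right of its own.

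Levels of different genes were compared per transcript length, as deposited TPM, a length-normalized share of all transcripts. Cdkn1a led in both groups, with 614 ± 20.7 TPM in the control and 642 ± 28.6 TPM in CUG200-m (SD, n = 3). In the control the order below it was Rbl2 (50.5 TPM), Cdkn2c (32.03), Cdkn2d (28.2), Rb1 (26.3), Cdkn1b (23.1), Rbl1 (15.1) and Cdkn1c (3.80). The ranges of neighbours from Cdkn2c down to Cdkn1b overlapped, so their order within that stretch is not resolved. With CUG200-m it was Rbl2 (33.1 TPM), Rb1 (29.5), Cdkn1b (23.8), Cdkn2c (21.8), Cdkn2d (16.1), Rbl1 (10.7) and Cdkn1c (0.0309), and the ranges overlapped between Rbl2 and Rb1 and between Cdkn1b and Cdkn2c. Cdkn1a made up 95.8% ± 0.592 of the Cip/Kip transcripts in the control and 96.4% ± 0.264 in CUG200-m, and Cdkn1c 0.594% ± 0.110 and 0.00472% ± 0.00418. The INK4 sum was 60.2 ± 4.25 TPM in the control and 37.8 ± 0.685 TPM in CUG200-m. Rb1 made up 28.7% ± 2.84 of the pocket protein transcripts in the control and 40.3% ± 3.51 in CUG200-m, and Rbl2 54.8% ± 3.11 and 45.1% ± 3.82 (all SD, n = 3).

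**Figure D4:**
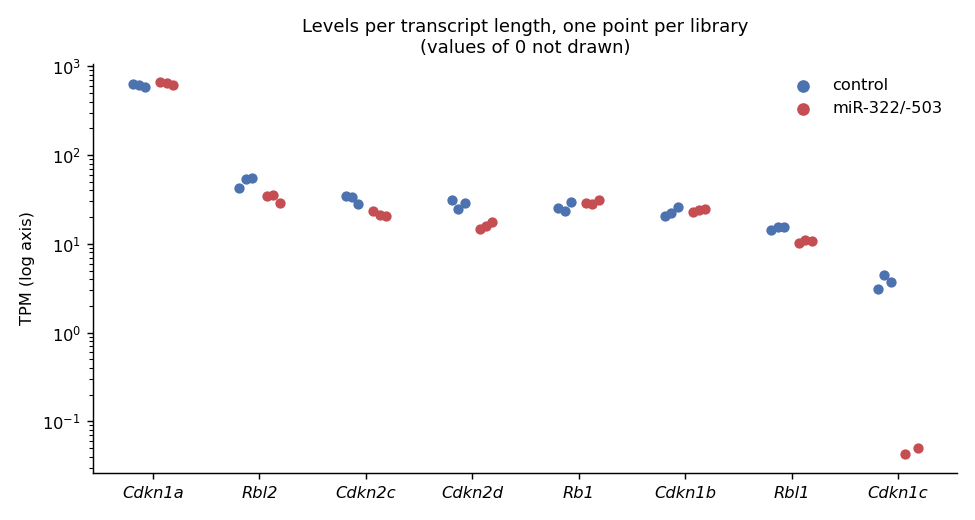
TPM on a log axis for the 8 members with reads, 1 point per library, control in blue and CUG200-m in red; values of 0 are not drawn. Cdkn1a lies at 591 to 661 TPM, over 10 times above the next gene, Rbl2, and Cdkn1c falls under 0.1 TPM in CUG200-m.

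The partners of these brakes moved in both directions. Of 12 tested cyclins and CDKs, 2 rose and 5 fell, with a median log2FC of -0.38, beside 13.2% higher, 15.5% lower and a median of -0.01 over all tested genes. Ccnd1, the D-type cyclin of proliferating myoblasts, fell from 212 ± 9.83 to 136 ± 13.7 CPM (SD, n = 3), a log2FC of -0.64 (adjusted p = 0.00117). Ccnd3, the D-type cyclin of differentiating muscle, had 52.2, 56.6 and 83.6 CPM in the control and 89.2, 170 and 149 CPM in CUG200-m. Its rise (log2FC 1.09, adjusted p = 0.0194) was uneven, and the adjusted p was 0.0732 without control replicate 1, 0.0726 without control replicate 2, 0.0628 without CUG200-m replicate 2 and 0.0606 without CUG200-m replicate 3, each of which left 1 gene of the list higher. Cdk6, a kinase bound by INK4 proteins, rose from 51.4 ± 1.93 to 81.0 ± 6.001 CPM, a log2FC of 0.66 (adjusted p = 0.000413), while Cdk4, the other such kinase, had a log2FC of 0.07 (adjusted p = 0.581).

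The other cyclins and kinases that fell were those of S phase and mitosis. Ccnb2 and Ccnb1, the B-type cyclins, had log2FC values of -1.22 and -0.69, and Ccna2 and their kinase Cdk1 had -0.67 and -0.60. Ccne1 and Cdk2, which act at the entry into S phase, had log2FC values of -0.22 and -0.30 and did not pass the test (adjusted p = 0.202 and 0.271). Control replicate 2 was high for Cdk2, with 63.2 CPM against 40.7 and 39.7 CPM in the other control libraries, and without it the log2FC was -0.06. That of Ccne1 was -0.12 without CUG200-m replicate 1 and -0.33 without CUG200-m replicate 3. Mki67, the gene of the proliferation marker Ki67, fell from 343 to 203 CPM, a log2FC of -0.75 (adjusted p = 0.000229).

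Counts for the genes downstream of the pocket proteins stand beside 13.2% higher and 15.5% lower among all tested genes. Of 17 tested E2F, DP and DREAM/MuvB genes, 2 were higher and 2 lower, with a median of -0.10. E2f4, the partner of Rbl2 in repression, rose from 60.8 to 85.7 CPM, a log2FC of 0.50 (adjusted p = 0.00135), and E2f3 had 0.25 (adjusted p = 0.0365). E2f7, a repressor E2F induced in cycling cells, fell with a log2FC of -0.60 (adjusted p = 0.0103), and Lin9, a MuvB subunit, had -0.30 (adjusted p = 0.0361, and between 0.0624 and 0.117 when any 1 library was left out). E2f3 was not past the threshold without control replicate 1 (adjusted p = 0.0999), control replicate 3 (0.0723), CUG200-m replicate 2 (0.0971) or CUG200-m replicate 3 (0.104). E2f1, the classical activator E2F, had a log2FC of 0.27 (adjusted p = 0.0587, and 0.0149 without control replicate 2). Tfdp2 was also called higher without control replicate 2 (log2FC 0.99, adjusted p = 0.00865) and Mybl2 lower without control replicate 1 (log2FC -0.50, adjusted p = 0.0382), both named after their values were seen. Over the left-out libraries, 1 to 4 genes of the list were called higher and 1 to 2 lower. Of 16 E2F target genes of DNA synthesis, 4 fell and none rose, with a median of -0.10, and no gene of the list rose at an unadjusted p under 0.05 or with DESeq2. Tk1, Mcm5 and Rrm1, for thymidine kinase, a replicative helicase subunit and a ribonucleotide reductase subunit, had log2FC values of -0.41, -0.29 and -0.25, and Mcm4, for another helicase subunit, had -0.22.

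**Figure D5:**
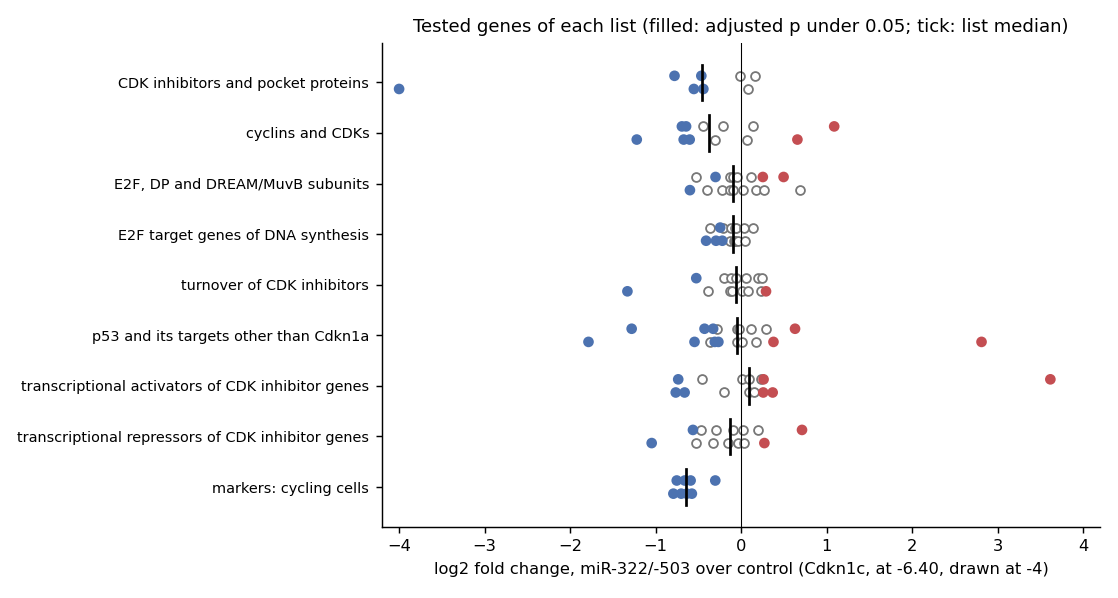
Log2FC (CUG200-m over control) of the tested genes of each list, filled where the adjusted p is under 0.05 (blue lower, red higher) and open otherwise; ticks are list medians. The 8 markers of cycling cells lie between -0.79 and -0.30, while the E2F target genes centre on -0.10.

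Of 15 genes that act in the turnover of CDK inhibitor proteins, 1 was higher and 2 were lower, with a median of -0.06, so neither share exceeded that of all tested genes (13.2% higher and 15.5% lower). Skp2, the subunit that directs p27 to degradation, had 12.4 ± 2.57 and 11.3 ± 0.606 CPM (SD, n = 3; log2FC -0.13, adjusted p = 0.598). Its cofactor Cks1b fell, with a log2FC of -0.53 (adjusted p = 0.00686), and Cdc20, an activator of the mitotic ligase, fell from 57.4 to 22.8 CPM, a log2FC of -1.33 (adjusted p = 8.01e-05). Cul4a, a scaffold of the ligase that degrades p21 in S phase, had a log2FC of 0.29 (adjusted p = 0.0190), which was 0.0618 without control replicate 1, 0.0590 without control replicate 3, 0.0656 without CUG200-m replicate 2 and 0.0676 without CUG200-m replicate 3. No gene of the list was called higher without control replicate 3 or without CUG200-m replicate 2.

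Upstream of Cdkn1a, Trp53 and its negative regulator Mdm2 had log2FC values of -0.05 and 0.01 (adjusted p = 0.564 and 0.902). Of 19 tested genes of p53 and its targets other than Cdkn1a, 3 rose and 7 fell, with a median of -0.05, beside 13.2% and 15.5% of all tested genes. Pmaip1, the apoptosis gene for Noxa, rose from 3.50, 2.75 and 3.16 to 22.7, 11.2 and 32.1 CPM, a log2FC of 2.81 (adjusted p = 0.00107). Plk2 and Gadd45a had 0.63 and 0.38. Perp and Btg2, for a membrane protein and an antiproliferative cofactor, fell, with log2FC values of -1.79 and -1.28.

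Of 14 tested transcriptional activators of CDK inhibitor genes, 4 were higher and 3 lower, with a median of 0.09, beside 13.2% and 15.5% of all tested genes. Mef2c, a partner of the myogenic factors, rose from 1.90 ± 0.513 to 23.3 ± 3.14 CPM (SD, n = 3), a log2FC of 3.61 (adjusted p = 2.23e-05). Myod1 had a log2FC of 0.37 (adjusted p = 0.0270), which was 0.0593, 0.0842 and 0.0575 without CUG200-m replicates 1, 2 and 3, and Myog fell, with -0.74 (adjusted p = 0.000665). For Myog the study reported the other direction, a rise with the microRNAs measured by RT-qPCR. Foxo3, a forkhead factor that activates Cdkn1b, fell with a log2FC of -0.77 (adjusted p = 6.29e-05). The others called were Smad3 and Klf4 (0.26 each) and Foxo1 (-0.66). The count of activators called higher was 1 without CUG200-m replicate 2 and 2 without CUG200-m replicate 3.

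Of 14 tested repressors of these genes, 2 were higher and 2 lower, with a median of -0.13, beside 13.2% and 15.5% of all tested genes. Cbx7, the Polycomb subunit best known for silencing Cdkn2a, fell with a log2FC of -1.05 (adjusted p = 0.00276). Id2 and Id3, inhibitors of MyoD-type factors, went opposite ways, with log2FC values of 0.71 (adjusted p = 0.00109) and -0.56 (adjusted p = 0.0356). The Id2 call was lost with limma on log2(TPM + 1) and log2(TPM + 0.1) (adjusted p = 0.107 and 0.102), and its TPM values overlapped between the groups. Id3 was not past the threshold without control replicate 1 (adjusted p = 0.108), control replicate 2 (0.0921), CUG200-m replicate 2 (0.112) or CUG200-m replicate 3 (0.109), and the count of lower genes was then 1. Rnf2, a Polycomb ubiquitin ligase, had 0.27, and the count of higher genes was 1 without control replicates 1, 2 or 3 or without CUG200-m replicates 2 or 3.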

How the data were processed

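RNA-seq of 6 libraries was analysed from the deposited files. According to the methods, the authors used Trim Galore for trimming, HISAT2 for alignment (GRCm38) and StringTie for quantification; versions are not given in the sources used here. The deposited table holds estimated counts as whole numbers, and the tables of single libraries hold coverage, FPKM and TPM computed by the authors. Coverage was used only for the size of a read pair (1 count stood for about 75.0 covered bases, and low genes peaked at 300), FPKM was not used, and TPM of genes listed more than once was summed. Counts were tested with edgeR 4.0.16 in R 4.3.3 (filterByExpr, TMM, quasi-likelihood test), and standard errors are the log2 fold change over the square root of F. Alternatives were DESeq2 1.42.0, other factors and filters, limma 3.58.1 on log2(TPM + 1) and log2(TPM + 0.1), counts per read pair, a replicate block and leaving out each library. The scripts were tested on simulated data. The 10 genes and the lists were chosen with earlier results of these data known. Named genes are the 10, 14 cell cycle and muscle genes, the Kcnq1 domain and, from each pathway list, the 3 called genes with the largest fold change and at least 1 CPM; E2f3, Ccna2, Cdk1, Mcm4, Plk2, Gadd45a, Smad3, Klf4, Foxo1, Rnf2, Mtap and the genes of the marker lists were named after their values were seen. Mir322 and Mir503 identify the study's microRNAs. GENCODE M21 held 55154 of the 55421 gene IDs.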

Additional observations from a re-analysis of the deposited data

How the results depend on the processing

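The 5 lower and 0 higher genes among the 10 were called in each of the 15 alternatives, except that Cdkn1c was not among the tested genes with at least 10 counts in every library, where it cannot pass by construction. Of the other counts, DESeq2 gave 4 E2F, DP and DREAM/MuvB genes higher and 2 turnover genes higher. Without a filter, 1 gene of the first list was higher and 1 lower. With limma on log2(TPM + 1) and on log2(TPM + 0.1) alike, 1 gene of that list was higher and 1 lower, 1 activator was higher and 0 repressors were higher. Turnover genes called higher were 2 with the other size factors, with upper-quartile factors, with at least 10 counts in every library and with counts per read pair. The cause was not tested. Leaving out each library gave 1 to 2 cyclins and CDKs higher, 1 to 4 genes higher and 1 to 2 lower in the E2F list, 0 to 1 turnover genes higher, 1 to 4 activators higher, and 1 to 2 repressors higher and 1 to 2 lower. Libraries were not paired by replicate number, since the deviations from the group means of same-numbered libraries had correlations of 0.131, 0.0689 and 0.0458. With the replicate block, 3 turnover genes and 5 p53 genes were higher and 5 repressors were lower. Cdkn1b turned to 0.00253 with other size factors, 0.00856 with upper-quartile factors, 0.0443 and 0.0462 with limma on log2(TPM + 1) and log2(TPM + 0.1), 0.0977 without control replicate 3, and 0.0172 and 0.00857 without CUG200-m replicates 1 and 2. Skp2 turned to 0.0168 without control replicate 3, Mdm2 to -0.0275 without CUG200-m replicate 3 and Tssc4 to -0.110 without CUG200-m replicate 2 (each a log2 fold change not past the threshold). The other ends of their ranges over the left-out libraries were -0.0713 for Cdkn1b, -0.282 for Skp2, 0.0625 for Mdm2 and 0.298 for Tssc4. Across all alternatives, 37 other single-gene values were weaker and 9 stronger. Depth limits Cdkn2a, Cdkn2b and, with CUG200-m, Cdkn1c, each at or under 3 read pairs per library.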
